A study of Mus musculus with 59 samples.

Results

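The neuroligin and neurexin genes *Nlgn1*, *Nlgn2*, *Nlgn3*, *Nrxn2*, *Nrxn3* and the neurexin-related gene *Cntnap2* were followed through a sequencing study of the mouse prefrontal cortex. They were picked by name, 6 of the 18088 genes in the table, and all 6 had a mean normalized count of at least 10, the filter that left 16599 genes for testing. Poly(A) RNA was sequenced from 59 C57BL/6J mice at postnatal day 25, 1 library for each mouse. Some carried 1 knock-in copy of Shank3 (heterozygous, HT) and the others were wild type (WT). The sample titles do not name the allele, and the column names of the deposited counts begin with L68P. Shank3 encodes a scaffold protein of the postsynaptic density of excitatory synapses. From day 3 to day 24, 3 weeks, the pups were given lithium, fluoxetine or vehicle by way of the dam's milk. Lithium, a mood stabilizer, inhibits glycogen synthase kinase 3, and fluoxetine, an antidepressant, blocks the reuptake of serotonin. Genotype and drug formed 6 arms, namely HT lithium, WT lithium, HT fluoxetine, WT fluoxetine, HT vehicle and WT vehicle. Each arm held 5 females and 5 males, except that WT lithium held 4 females, so that the arms had 10 libraries and WT lithium 9. Litters are not labelled and pups of a dam share her dose, so p-values count the pups as independent and measure the spread between these libraries only.

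Neurexins sit mainly in the presynaptic membrane and bind across the cleft to a diverse set of postsynaptic partners, of which the neuroligins are the best known. Neuroligins are cholinesterase-like proteins that cannot cleave acetylcholine. The product of *Nlgn1* is found mostly at excitatory synapses, that of *Nlgn2* mostly at inhibitory synapses, and that of the X-linked gene *Nlgn3* at both. *Cntnap2* encodes Caspr2, a distant relative of the neurexins that gathers Kv1 potassium channels beside the nodes of Ranvier in myelinated axons. Variants in genes of these families, among them *NLGN3* and *CNTNAP2*, have been linked to autism in people, as have losses of *SHANK3*.

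Reads recovered from the normalized counts summed to between 22984556 and 35969254 in a library over the 18088 genes. The least abundant of the 6 genes, *Nlgn1*, had between 1597 and 3382 such reads in a library. Counting error is therefore small beside the differences between mice. *Shank3* itself did not pass the test in HT vehicle against WT vehicle mice (log2 change -0.03 ± 0.09 SE, limma adjusted p = 0.987), and its summed count does not check the genotype of a knock-in. Lithium against vehicle gave *Shank3* a log2 change of 0.43 ± 0.09 in HT mice (limma adjusted p = 0.000272) and 0.06 ± 0.09 in WT mice (0.751). The HT change minus the WT change did not pass (0.37 ± 0.12, 0.240). All 6 markers of excitatory neurons and all 7 of inhibitory neurons were above 0 in every library. Markers of the olfactory bulb, a neighbour of the dissected region, summed to between 218 and 14678 normalized counts over 5 genes. *Eomes* and *Tbx21* were at 0 in some libraries. The median bulb sum differed between the arms, at 673 in HT lithium, 1474 in HT fluoxetine and 2471 in HT vehicle libraries. In WT libraries it was 2759 with lithium, 1684 with fluoxetine and 4127 with vehicle. There were 3 libraries that stood apart. They were HT lithium female 5, with 2.70% mitochondrial reads and a sum of 10265 over 7 striatum markers, HT vehicle female 1, with a sum of 52725 over 5 choroid plexus markers, and WT lithium female 2, with a striatum sum of 11210. In bulk tissue, fewer cells of a type and less RNA per cell cannot be told apart.

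Per kilobase of merged exons, *Nlgn2* was the most abundant of the 6 genes, with a normalized count of 1448 ± 186 per kilobase (SD, n = 59 libraries). *Nrxn2* followed with 1006 ± 156, *Nrxn3* with 500.5 ± 46.8, *Nlgn3* with 410 ± 47.3, *Cntnap2* with 347 ± 28.2 and *Nlgn1* with 172 ± 22.8 per kilobase. *Nlgn2* was the highest and *Nlgn1* the lowest in 59 of 59 libraries, and the whole order of 6 was found in 49. The neighbours *Nlgn3* and *Cntnap2* were the least settled, with *Nlgn3* above *Cntnap2* in 51 libraries. The order of the top pair depends on the length used. Divided by the longest annotated transcript, the 13812 bases of merged *Nrxn2* exons became 6667, and *Nrxn2* came first with 2084 per kilobase against 1505 for *Nlgn2*. The genes differed little between mice, the highest library of each being between 1.46 times (*Cntnap2*) and 1.89 times (*Nrxn2*) its lowest.

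Of the summed normalized counts of the 3 neuroligins per kilobase, *Nlgn2* made up 72.8% ± 2.5 in HT lithium and 69.9% ± 2.0 in HT vehicle mice (SD, n = 10 each). The share of *Nlgn3* was 19.8% ± 1.6 in HT lithium and 20.0% ± 1.2 in HT vehicle mice. The share of *Nlgn1* was 7.41% ± 0.99 in HT lithium and 10.2% ± 1.1 in HT vehicle mice, and in WT mice it was 7.90% ± 1.2 with lithium (n = 9) and 9.25% ± 1.4 with vehicle. *Nlgn1* thus held the smallest share in every arm.

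By arm, the mean normalized count of *Nlgn2* was 9314 ± 922 in HT lithium, 8506 ± 715 in WT lithium, 8424 ± 661 in HT fluoxetine, 8864 ± 1113 in WT fluoxetine, 7294 ± 764 in HT vehicle and 7890 ± 1047 in WT vehicle mice (SD). From the highest arm to the lowest, each step of *Nlgn2* was smaller than the SD of both arms beside it. *Nlgn3* had 4052 ± 411 in HT lithium, 3979 ± 161 in WT lithium, 4040 ± 466.3 in HT fluoxetine, 3924 ± 320 in WT fluoxetine, 3332 ± 286 in HT vehicle and 3475 ± 317 in WT vehicle mice. The 4 drug arms of *Nlgn3* formed 1 block above both vehicle arms, and the step of 449 between the blocks was the one that was not smaller than both SDs. *Nlgn1* had its lowest mean in WT lithium mice, 2174 ± 272, and its highest in HT vehicle mice, 2446 ± 259, and no step between neighbours exceeded the spread.

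*Nrxn2* had its highest mean in HT lithium mice, 15255 ± 2341, close to the 15170 ± 2671 of WT fluoxetine mice. WT lithium (13975 ± 1830), HT fluoxetine (13514 ± 882) and WT vehicle mice (13558 ± 1857) lay together, and HT vehicle mice, at 11910 ± 1257, lay 1604 below the nearest arm. *Nrxn3* lay between 6629 ± 479 in WT lithium and 5992 ± 633 in HT vehicle mice, and no step between its arms exceeded the spread. *Cntnap2* lay between 3540 ± 171 and 3681 ± 303 in 5 arms, while HT lithium mice, at 3238 ± 213, lay 302 below the next.

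**Figure D1:**
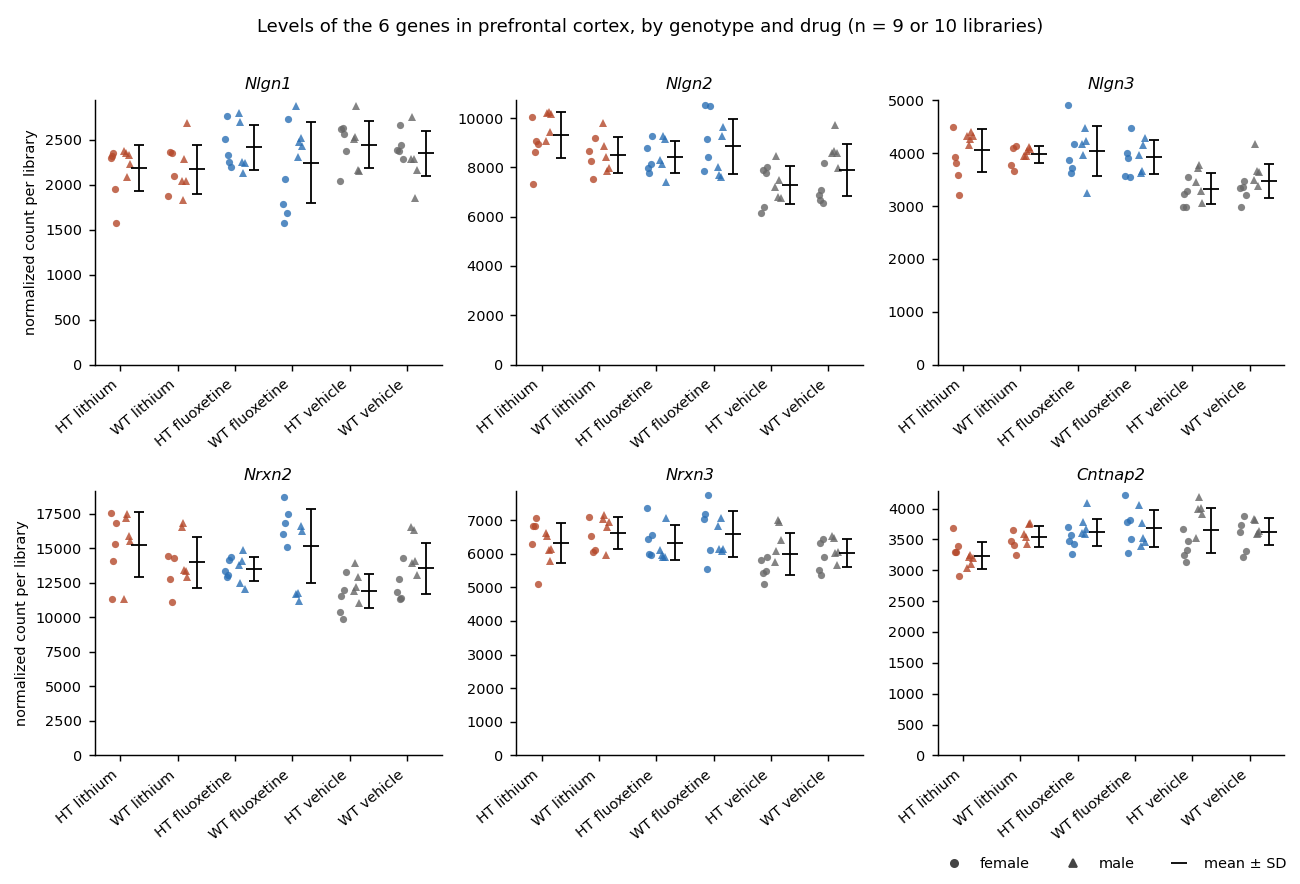
Normalized count of each of the 6 genes (vertical axis, from 0) in each library of the 6 arms of genotype and drug (horizontal axis). Circles are females and triangles males; the black mark is the mean with its SD over 10 libraries, or 9 in WT lithium. Most HT lithium libraries lie above the HT vehicle libraries for *Nlgn2*, *Nlgn3* and *Nrxn2*, and most lie below the middle of the HT vehicle libraries for *Cntnap2*.

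Lithium in HT mice moved 4 of the 6 genes past an adjusted p of 0.05. *Nlgn2*, *Nlgn3* and *Nrxn2* rose and *Cntnap2* fell, while *Nlgn1* and *Nrxn3* did not pass. The test was limma on log2(normalized count + 1), with Benjamini-Hochberg adjustment over 16599 genes, females and males averaged. In this comparison 20.3% of all tested genes passed, 10.9% higher and 9.43% lower.

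*Nlgn2* ran from 7322 to 10256 normalized counts in HT lithium libraries, with a median of 9265, against 6150 to 8475 with a median of 7341 in HT vehicle libraries. All but 1 of the 10 HT lithium libraries were above the highest HT vehicle library. The log2 change was 0.35 ± 0.06 (SE), 27.7% higher, with a limma adjusted p of 4.88e-05. *Nlgn3* ran from 3206 to 4493 with a median of 4218 in HT lithium libraries, against 2973 to 3774 with a median of 3286 in HT vehicle libraries. Of the HT lithium libraries, 8 lay above all HT vehicle libraries, and the lowest was female 5, the library with few mitochondrial reads. The log2 change was 0.28 ± 0.06, with a limma adjusted p of 0.000222.

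*Nrxn2* ran from 11307 to 17583 with a median of 15715 in HT lithium libraries, against 9904 to 13901 with a median of 11952 in HT vehicle libraries. The HT lithium values fell into 8 libraries above the highest HT vehicle library and 2, a female and a male, below the HT vehicle median. The log2 change was 0.35 ± 0.08, with a limma adjusted p of 0.00117. *Cntnap2* ran from 2903 to 3692 with a median of 3227 in HT lithium libraries, against 3131 to 4182 with a median of 3598 in HT vehicle libraries. Of the HT lithium libraries, 9 were below the HT vehicle median and 3 below its lowest library, so the ranges overlapped broadly. *Cntnap2* fell by 0.17 ± 0.04 on the log2 scale, with a limma adjusted p of 0.00336.

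The 2 genes that did not pass gave different pictures. *Nlgn1* ran from 1577 to 2375 with a median of 2310 in HT lithium libraries, against 2041 to 2870 with a median of 2517 in HT vehicle libraries, and all 10 HT lithium libraries lay below the HT vehicle median. Its log2 change was -0.16 ± 0.08 with a limma adjusted p of 0.144. It passed with a length trend removed from each library (-0.23, 0.0385) and with bulb and striatum marker levels as covariates (-0.20, 0.0372). *Nrxn3* ran from 5091 to 7072 with a median of 6413 in HT lithium libraries, against 5085 to 7003 with a median of 5869 in HT vehicle libraries. Its log2 change was 0.08 ± 0.06 with a limma adjusted p of 0.339, and the ranges were nearly the same. Without the 3 libraries that stood apart, the same 4 genes passed, with log2 changes of 0.32 for *Nlgn2*, 0.30 for *Nlgn3*, 0.31 for *Nrxn2* and -0.13 for *Cntnap2*. In males alone *Nlgn2* (0.42), *Nlgn3* (0.32) and *Cntnap2* (-0.31) passed, and in females alone *Nrxn2* (0.39) did, while *Cntnap2* was at -0.03 in females.

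Base composition moved with this comparison. Each library was given a GC measure, Spearman's rho across genes between its deviation from the mean library and the GC content of each gene's longest transcript. The measure averaged 0.18 ± 0.22 in HT lithium and -0.19 ± 0.15 in HT vehicle libraries (SD, n = 10 each), against -0.01 and -0.02 in WT lithium and WT vehicle libraries. *Nrxn2* and *Nlgn2* have GC-rich transcripts (62.4% and 60.7%), *Nlgn3* and *Nrxn3* lie between (49.3% and 47.5%), and *Cntnap2* and *Nlgn1* are AT-rich (44.5% and 38.9%). With a GC trend removed from each library, the log2 changes of the 3 genes that rose were 0.21 for *Nlgn2*, 0.29 for *Nlgn3* and 0.19 for *Nrxn2*, all past the limma threshold. The other values were -0.10 for *Cntnap2* (limma adjusted p = 0.0740), -0.01 for *Nlgn1* (0.942) and 0.11 for *Nrxn3* (0.177). *Nlgn3* thus kept its size, while *Nlgn2*, *Nrxn2*, *Cntnap2* and *Nlgn1* moved towards 0 and the call of *Cntnap2* was lost. The summed markers of excitatory neurons (6 of 6 listed, none at 0) ranged from 151620 to 225240 in HT lithium and from 130780 to 203980 in HT vehicle libraries. Those of myelinating oligodendrocytes (7 of 7 listed, none at 0) ranged from 48833 to 161120 in HT lithium and from 71261 to 168150 in HT vehicle libraries. The medians in HT lithium and HT vehicle libraries were 203670 and 184320 for excitatory neurons, and 99667 and 142930 for myelinating oligodendrocytes. For the olfactory bulb markers they were 673 and 2471. The part that GC content and cell makeup have in the changes was not tested further.

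Because *Nlgn2* rose and *Cntnap2* fell in HT lithium mice, the bases before a start site of each are shown (RefSeq, GRCm38.p6). Windows were given for 4 of the 6 genes. A further *Cntnap2* window, chr6:47244146-47244395, was 45.2% GC with 3 CpG and 0 GC boxes and is not shown. The *Nlgn2* window is chr11:69837785-69838034 on the minus strand and the *Cntnap2* window chr6:45059811-45060060 on the plus strand, each 250 bases written 5′ to 3′ on the strand of the gene. Capitals mark the GC box GGGCGG, searched on both strands.
*Nlgn2*: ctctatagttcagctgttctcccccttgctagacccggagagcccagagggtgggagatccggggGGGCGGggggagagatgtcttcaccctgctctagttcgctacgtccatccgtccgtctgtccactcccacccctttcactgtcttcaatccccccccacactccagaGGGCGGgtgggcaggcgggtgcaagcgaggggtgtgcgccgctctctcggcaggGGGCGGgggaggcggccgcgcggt
*Cntnap2*: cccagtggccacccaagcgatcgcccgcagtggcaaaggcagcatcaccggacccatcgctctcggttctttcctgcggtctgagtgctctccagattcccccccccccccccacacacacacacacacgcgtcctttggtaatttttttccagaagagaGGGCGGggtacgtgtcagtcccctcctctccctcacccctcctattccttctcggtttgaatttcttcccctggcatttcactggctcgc
The *Nlgn2* window was 67.6% GC with 18 CpG and 3 GC boxes, and the *Cntnap2* window was 59.6% GC with 13 CpG and 1 GC box. Over 32851 such windows the median was 52.4% GC and 6 CpG, 32.7% held at least 1 GC box and 16.7% at least 2. A GC box is the core of the site that Sp1 binds, but the match only describes these letters.

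**Figure D2:**
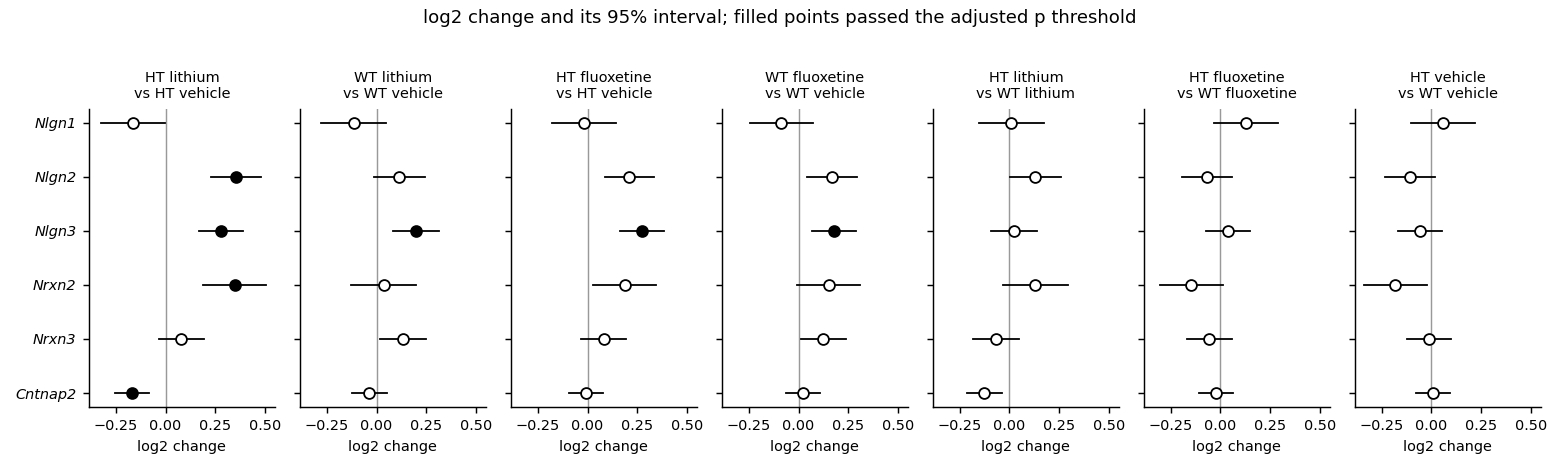
The log2 change (horizontal axis) of each of the 6 genes (rows) in 4 drug comparisons and 3 genotype comparisons (panels), with 95% intervals. Filled points passed a limma adjusted p of 0.05: *Nlgn2*, *Nlgn3*, *Nrxn2* and *Cntnap2* for HT lithium, and *Nlgn3* in the other 3 drug comparisons. No point is filled in the genotype panels.

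In WT mice given lithium, *Nlgn3* rose and the other 5 genes did not pass, in a comparison in which 12.8% of all tested genes passed, 7.66% higher and 5.11% lower. *Nlgn3* ran from 3673 to 4134 with a median of 4048 in WT lithium libraries, against 2987 to 4178 with a median of 3429 in WT vehicle libraries. All 9 WT lithium libraries were above the WT vehicle median, but none was above the highest WT vehicle library. The log2 change was 0.20 ± 0.06, with a limma adjusted p of 0.0151. Changes across genes in this comparison followed transcript length (Spearman's rho 0.34 across genes, which are not independent) and not GC content (0.01). With a length trend removed from each library, *Nlgn3* was at 0.09 with a limma adjusted p of 0.382, and *Cntnap2* passed with -0.16 and 0.00534. In neither sex alone did *Nlgn3* pass, at 0.26 in females and 0.14 in males.

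The other 5 genes gave smaller log2 changes in WT lithium mice. *Nlgn2* was at 0.11 ± 0.06 (limma adjusted p = 0.253), or 0.13 with the GC trend removed, which passed (0.0487), and *Nlgn1* one of -0.11 ± 0.08 (0.391). *Nrxn2*, which was 0.35 in HT mice, was at 0.04 ± 0.08 (0.833), with medians of 13456 in WT lithium and 13486 in WT vehicle libraries. *Nrxn3* was at 0.13 ± 0.06 (0.119), with a 95% interval from 0.02 to 0.25 and 6 of 9 WT lithium libraries above the highest WT vehicle library. *Cntnap2* was at -0.04 ± 0.04 (0.655).

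Whether the response to lithium differed between the genotypes was tested as an interaction, the HT change minus the WT change. None of the 6 genes passed, and 0.00602% of the tested genes, 1 of 16599, did. The interaction was 0.31 ± 0.11 for *Nrxn2* (limma adjusted p = 0.268), 0.24 ± 0.09 for *Nlgn2* (0.279) and -0.13 ± 0.06 for *Cntnap2* (0.368). For *Nlgn3*, *Nlgn1* and *Nrxn3* it lay between -0.05 and 0.08, with adjusted p between 0.717 and 0.898. The 95% interval for *Nrxn2* reached from 0.08 to 0.54. Interaction values across genes followed GC content (Spearman's rho 0.50 across genes, which are not independent), and *Nrxn2* and *Nlgn2* have GC-rich transcripts. With the GC trend of each library removed, none of the 6 genes passed and 0.0120% of all tested genes did. Over 14 other settings the interaction ran from 0.13 to 0.35 for *Nrxn2* and from 0.03 to 0.45 for *Nlgn2*. The part of GC content was not tested further. In males alone, *Nlgn2* (0.45, adjusted p = 0.0317) and *Cntnap2* (-0.28, 0.0393) passed the interaction test in limma, where 3.79% of all tested genes were called, and in females alone no gene of the 6 and none in all was.

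With fluoxetine 1 of the 6 genes, *Nlgn3*, passed the threshold in each genotype, and neither call held in all of the other fits. Both drugs were set against the same vehicle libraries, so the lithium and fluoxetine values within a genotype are not independent. In HT mice 0.277% of all tested genes passed, 0.205% higher and 0.0723% lower. *Nlgn3* ran from 3254 to 4916 with a median of 4063 in HT fluoxetine libraries, against 2973 to 3774 with a median of 3286 in HT vehicle libraries. Of the HT fluoxetine libraries, 7 lay above all HT vehicle libraries. The log2 change was 0.27 ± 0.06, with a limma adjusted p of 0.0198, and lithium gave 0.28 in the same genotype. The call was lost when any 1 of 4 libraries was left out (HT fluoxetine female 5 and male 3, HT vehicle female 3 and male 5), with adjusted p between 0.060 and 0.071. It was also lost when only the 4 groups compared were in the model (0.157), with the length trend removed (0.24, 0.0967), and in females (0.34, 0.135) or males alone (0.21, 0.554).

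The other 5 genes did not pass in HT fluoxetine mice. *Nlgn2* and *Nrxn2* had all 10 HT fluoxetine libraries above the HT vehicle median, with log2 changes of 0.21 ± 0.06 (limma adjusted p = 0.117) and 0.19 ± 0.08 (0.320). Without HT vehicle male 2 *Nlgn2* passed, at 0.24 and 0.0485. *Nrxn3* likewise had all 10 above that median, with a log2 change of 0.08 ± 0.06 (0.601). *Nlgn1* (-0.02, adjusted p = 0.951) and *Cntnap2* (-0.01, 0.957) were near 0, and the difference between the 2 drugs was not tested. Changes across genes followed GC content here too (Spearman's rho 0.30 across genes, which are not independent). The GC measure averaged -0.02 in HT fluoxetine and -0.19 in HT vehicle libraries.

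In WT mice given fluoxetine 5.66% of all tested genes passed, 3.54% higher and 2.11% lower. *Nlgn3* ran from 3549 to 4479 with a median of 3939 in WT fluoxetine libraries, against 2987 to 4178 with a median of 3429 in WT vehicle libraries, and all 10 WT fluoxetine libraries were above the WT vehicle median. The log2 change was 0.18 ± 0.06 with a limma adjusted p of 0.0457. The call was lost in 14 of the 20 fits that left out 1 library, at log2 changes between 0.15 and 0.18 and adjusted p between 0.056 and 0.087. These were the fits without WT fluoxetine females 2, 3 or 5 or males 1, 4 or 5, and without WT vehicle females 1, 2, 3 or 5 or males 1, 3, 4 or 5. It was also lost with the length trend removed (0.11, 0.313), in a model of just the 4 groups compared (0.18, 0.0755), and in females (0.25, 0.0687) or males alone (0.10, 0.433). *Nlgn2* was at 0.17 ± 0.06 (0.0947), or 0.20 without WT fluoxetine female 1 (0.0385) and 0.16 with the GC trend removed (0.0229), *Nrxn2* at 0.15 ± 0.08 (0.265), *Nrxn3* at 0.12 ± 0.06 (0.181), *Nlgn1* at -0.09 ± 0.08 (0.587) and *Cntnap2* at 0.02 ± 0.04 (0.839). Genotype by fluoxetine was not called for any of the 16599 genes (0%, smallest adjusted p 0.765, 844 genes at an unadjusted p under 0.05), and the 6 genes lay between -0.04 and 0.10.

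Over the 4 drug comparisons *Nlgn3* had log2 changes of 0.28 and 0.20 with lithium and 0.27 and 0.18 with fluoxetine in HT and WT mice. Its exons share 3823 bases on the same strand with *Gm21986*, an annotated gene with a mean normalized count of 105 against 3797 for *Nlgn3*, and transcript-level quantification can divide reads between the pair. *Nlgn1* shares 1229 exon bases with *A830092H15Rik*, *Nrxn2* 207 with *Gm14964* and 682 with *Slc22a12*, and *Nrxn3* 439 with *Gm37980*. *Slc22a12* and *Gm37980* are not among the 18088 genes counted. All of these lie on the opposite strand, which a stranded library keeps apart only if it was counted by strand.

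No difference between HT and WT mice was called under any of the 3 treatments. Under vehicle, lithium and fluoxetine 0 of 16599 genes (0%) passed in limma, with 1074, 1839 and 1883 genes at an unadjusted p under 0.05. edgeR called 1, 0 and 1 genes and DESeq2 6, 37 and 19, and neither called any of the 6. In males alone 136 genes were called under vehicle, 5 under lithium and 1 under fluoxetine, and with bulb and striatum covariates 144 were called under fluoxetine, in each case none of the 6. Under vehicle the largest value among the 6 was that of *Nrxn2*, at -0.18 ± 0.08 (limma adjusted p = 0.725), with 9 of 10 HT vehicle libraries below the WT vehicle median. *Nlgn2* was at -0.11 ± 0.06 (0.789), also with 9 of 10 HT vehicle libraries below the WT vehicle median, and the GC measure averaged -0.19 in HT vehicle and -0.02 in WT vehicle libraries. *Nlgn3*, *Nlgn1*, *Nrxn3* and *Cntnap2* lay between -0.06 and 0.06.

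Under lithium *Cntnap2* was at -0.13 ± 0.04 in HT against WT mice (limma adjusted p = 0.288), with 9 of 10 HT lithium libraries below the WT lithium median and 5 below its lowest library. *Nlgn2* and *Nrxn2* were both at 0.13 (0.447 and 0.558), and the others lay between -0.07 and 0.02. Under fluoxetine *Nrxn2* was at -0.15 ± 0.08 (0.471), with all 10 HT fluoxetine libraries below the WT fluoxetine median of 16116. *Nlgn1* was at 0.13 ± 0.08 (0.542) and the other 4 lay between -0.07 and 0.04. The GC measure averaged 0.18 in HT and -0.01 in WT libraries under lithium, and -0.02 in HT and 0.06 in WT libraries under fluoxetine. A p that misses the threshold does not show that the genotypes were alike: the 95% interval for *Nrxn2* under vehicle reached from -0.34 to -0.02.

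Averaged over the 6 arms, females had lower values than males for all 6 genes, between -0.08 for *Nlgn3* and -0.03 for *Nrxn3*, and none passed. *Nlgn3*, on the X chromosome, had a limma adjusted p of 0.335, in a comparison in which 0.217% of all tested genes passed, 0.0904% higher and 0.127% lower in females. In WT mice the response to fluoxetine differed between the sexes for 3 of the 6 genes as measured, and for none with the GC trend removed. The interaction, the change in females minus the change in males, was past the threshold for *Nrxn2*, *Nlgn2* and *Nlgn1*, and for 8.66% of all tested genes, 3.58% above 0 and 5.08% below. Under vehicle, WT females and males averaged 12327 and 14790 normalized counts for *Nrxn2*, 7078 and 8702 for *Nlgn2*, and 2430 and 2270 for *Nlgn1*. Under fluoxetine they averaged 16839 and 13500 for *Nrxn2*, 9292 and 8436 for *Nlgn2*, and 1966.5 and 2523 for *Nlgn1*.

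*Nrxn2* had normalized counts of 16001, 18744, 16845, 15119 and 17486 in WT fluoxetine females, against 11819, 12803, 11355, 11371 and 14285 in WT vehicle females. In females alone 7.76% of all tested genes passed for WT fluoxetine against WT vehicle. In WT fluoxetine males it had 11678, 11797, 11192, 16604 and 16231, against 16563, 13909, 16312, 14101 and 13063 in WT vehicle males. The fluoxetine males thus fell into 3 low and 2 high libraries. The interaction was 0.60 ± 0.16 (limma adjusted p = 0.0152), made of 0.45 in females and -0.15 in males.

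*Nlgn2* had 7851, 10524, 9157, 8432 and 10495 in WT fluoxetine females, against 6880, 6675, 7099, 6558 and 8179 in WT vehicle females. In males it had 8006, 7675, 7618, 9260 and 9623 under fluoxetine, against 8593, 8677, 9707, 8578 and 7957 under vehicle. Among the females 1 fluoxetine library lay below the highest vehicle library, and among the males the ranges overlapped. The interaction was 0.44 ± 0.12 (limma adjusted p = 0.0238), with 0.39 in females and -0.05 in males.

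*Nlgn1* went the other way. It had 1784, 1572, 2065, 1683 and 2729 in WT fluoxetine females, against 2391, 2377, 2660, 2438 and 2285 in WT vehicle females. In males it had 2879, 2306, 2472, 2522 and 2435 under fluoxetine, against 2291, 2758, 2282, 1857 and 2162 under vehicle. In the females 4 fluoxetine libraries lay below all vehicle libraries and the fifth above them. The interaction was -0.49 ± 0.16 (limma adjusted p = 0.0423). It was lost in 14 of the 20 fits that left out 1 WT library, at values between -0.50 and -0.42. These lacked fluoxetine females 1, 2 or 4 or males 1, 3 or 4, or vehicle females 1, 2, 3 or 4 or males 1, 3, 4 or 5. It was also lost in edgeR (-0.45, adjusted p = 0.0613), with the length trend removed (-0.43, 0.0824) and in a model of just the WT fluoxetine and WT vehicle groups (-0.49, 0.0973). The *Nlgn2* interaction was lost without fluoxetine female 2 (0.39), fluoxetine male 1 (0.42) or vehicle male 3 (0.40) and in that model of 4 groups (0.44, 0.0680), and the *Nrxn2* interaction in none of the 20.

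The GC measure followed the same split. It averaged 0.21 in WT fluoxetine and -0.21 in WT vehicle females, and -0.08 in WT fluoxetine and 0.18 in WT vehicle males (n = 5 each). With the GC trend of each library removed, the interaction was 0.25 for *Nrxn2*, 0.12 for *Nlgn2* and -0.22 for *Nlgn1*, with limma adjusted p of 0.249, 0.469 and 0.457, and 1 gene of 16599 was called. What GC content has to do with the sexes was not tested. *Nlgn3* (0.15), *Nrxn3* (0.11) and *Cntnap2* (0.09) did not pass the interaction as measured, with adjusted p between 0.41 and 0.552.

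**Figure D3:**
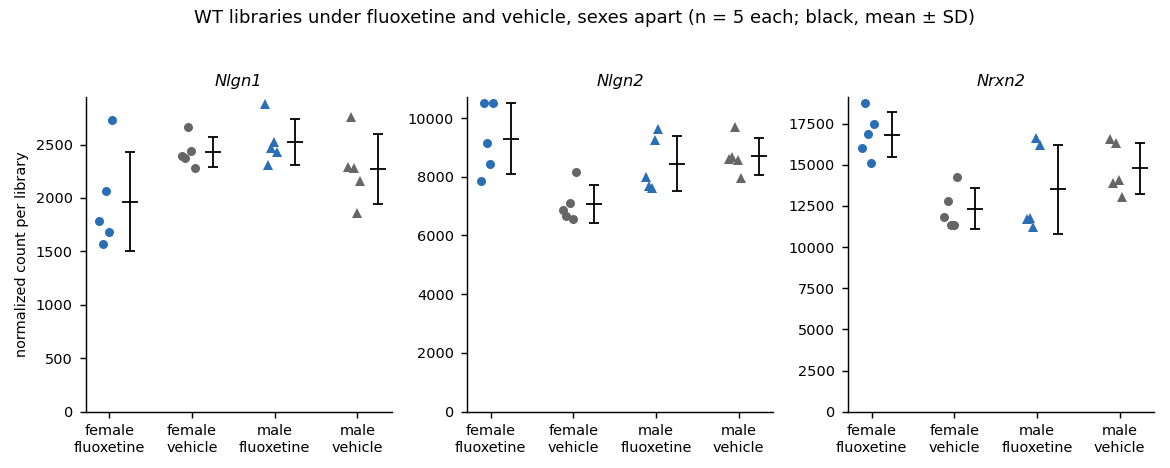
Normalized counts (vertical axis, from 0) of *Nlgn1*, *Nlgn2* and *Nrxn2* in WT libraries, by sex and treatment (horizontal axis, 5 libraries in each column), with mean and SD in black. *Nrxn2* lies between 15119 and 18744 in fluoxetine females and between 11355 and 14285 in vehicle females. In males it lies between 11192 and 16604 under fluoxetine and between 13063 and 16563 under vehicle.

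The other 3 interactions with sex held none of the 6 genes. For lithium in HT mice, where 0.0120% of all tested genes passed, *Cntnap2* was at 0.28 ± 0.09 (limma adjusted p = 0.132). In HT males it ranged from 3039 to 3244 under lithium and from 3522 to 4182 under vehicle, and in HT females from 2903 to 3692 under lithium and from 3131 to 3674 under vehicle. In males alone 16.2% of all tested genes passed for HT lithium against HT vehicle. The GC measure averaged 0.25 in HT lithium and -0.24 in HT vehicle males. *Nrxn3* was at 0.25 ± 0.11 (0.255) in the same test. Without the 3 libraries that stood apart *Cntnap2* passed, with 0.36 and an adjusted p of 0.0383, and DESeq2 gave 0.0497. For fluoxetine in HT mice the value furthest from 0 was that of *Nrxn3*, at 0.27 ± 0.11 (0.832), and for lithium in WT mice that of *Nlgn2*, at 0.27 ± 0.13 (0.529), and 0 of 16599 genes (0%) passed in either.

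Between libraries of 1 group, 2 pairs of the 6 genes varied most closely together. After subtraction of the 12 group means, *Nlgn2* and *Nrxn2* had a Pearson's r of 0.82 over 59 libraries, and *Nrxn3* and *Cntnap2* one of 0.72. *Nlgn3* went with *Nlgn2* (0.51) and *Nlgn1* (0.50), while *Nlgn1* and *Nlgn2* were unrelated (-0.04). All these values come from the same libraries and share their depth and base composition. With the GC trend of each library removed, r was 0.54 for *Nlgn2* and *Nrxn2* and 0.54 for *Nrxn3* and *Cntnap2*, and the 3 neuroligins had r of 0.74 (*Nlgn2* and *Nlgn3*), 0.63 (*Nlgn1* and *Nlgn3*) and 0.54 (*Nlgn1* and *Nlgn2*).

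**Figure D4:**
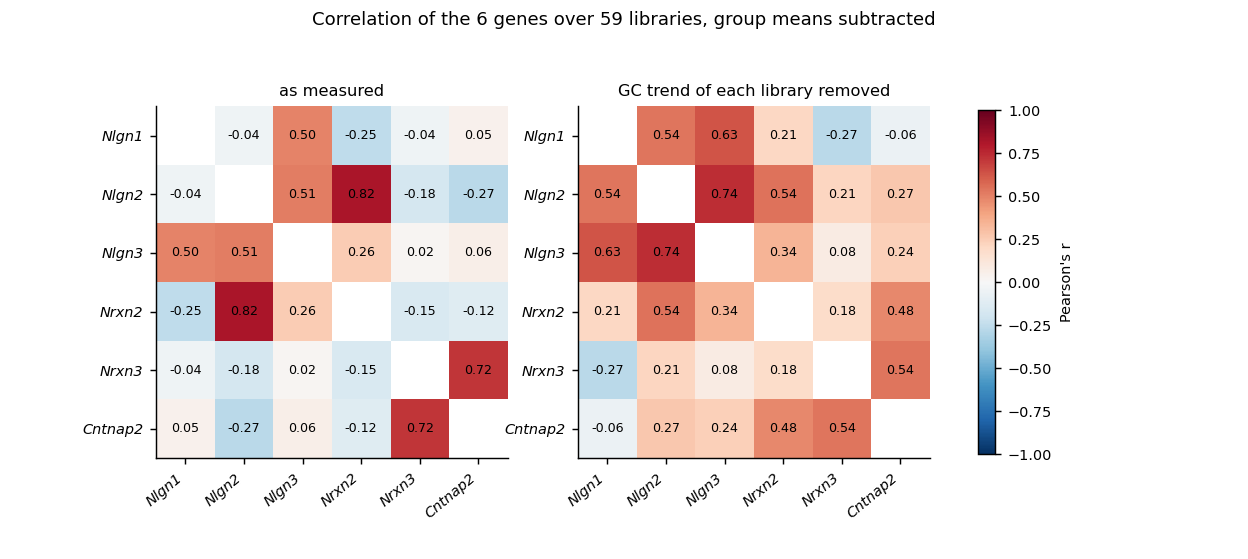
Pearson's r of each pair of the 6 genes (rows and columns) over 59 libraries after subtraction of the group means, as measured (left) and with the GC trend of each library removed (right). The pair *Nlgn2* and *Nrxn2* stands at 0.82 on the left and 0.54 on the right, and the 3 neuroligins stand between 0.54 and 0.74 on the right.

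Against the GC measure itself, r within groups was 0.80 for *Nrxn2*, 0.78 for *Nlgn2*, 0.16 for *Nlgn3*, -0.39 for *Nlgn1*, -0.50 for *Nrxn3* and -0.51 for *Cntnap2* (n = 59). *Nrxn3* and *Cntnap2* followed other measures too. Their r with the summed olfactory bulb markers was 0.66 and 0.48, and with the summed markers of inhibitory neurons 0.76 and 0.48. With those of excitatory neurons it was -0.56 and -0.46, and with a length measure, made like the GC measure from transcript length, 0.63 and 0.55. *Nlgn1* and *Nlgn3* had r of 0.63 and 0.61 with the summed markers of excitatory neurons, and 0.59 and 0.51 with those of astrocytes. They had -0.51 and -0.43 with inhibitory neuron markers, -0.56 and -0.43 with bulb markers, and -0.61 and -0.19 with markers of myelinating oligodendrocytes. With the bulb and striatum marker levels as covariates, *Nrxn3* passed in 3 drug comparisons, at 0.14 in HT lithium, 0.15 in WT lithium and 0.17 in WT fluoxetine mice (limma adjusted p = 0.0240, 0.0172 and 0.00569).

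**Figure D5:**
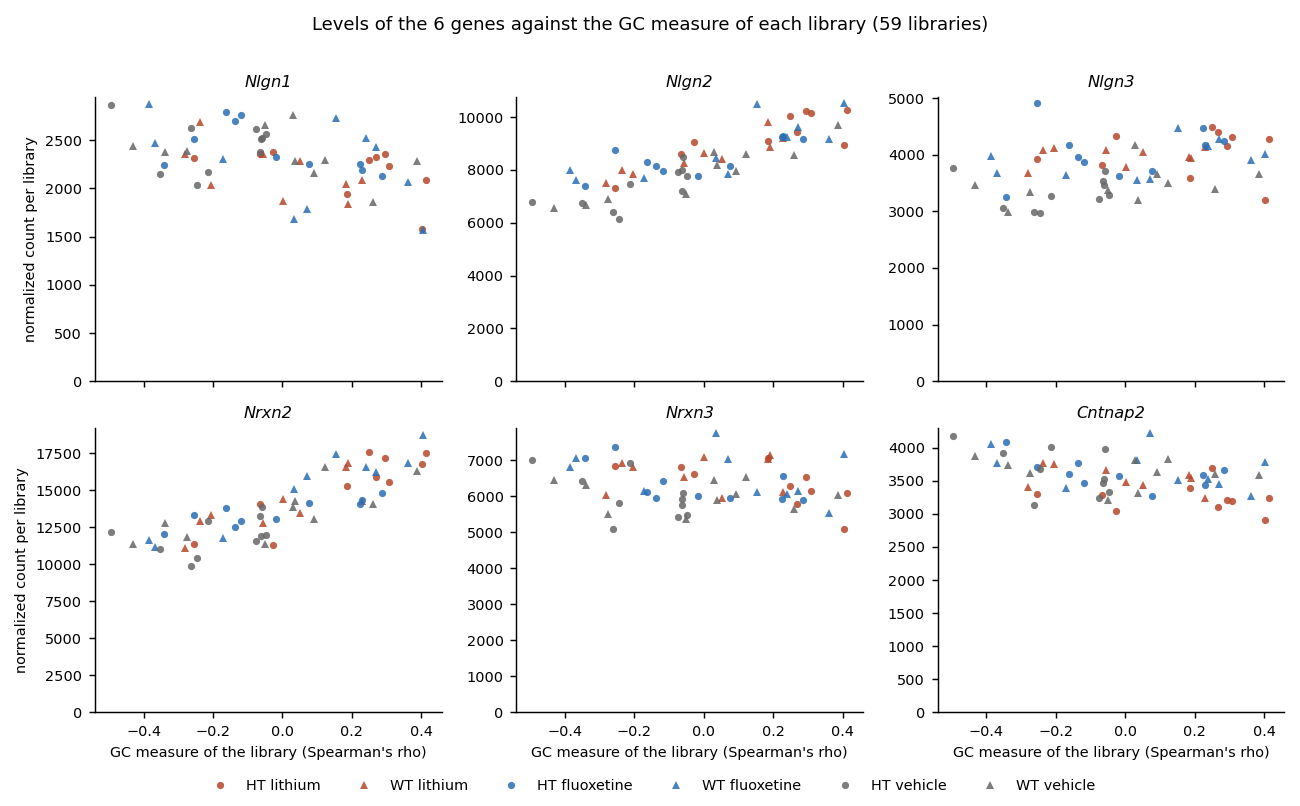
Normalized count of each gene (vertical axis, from 0) against the GC measure of the library (horizontal axis, Spearman's rho) for 59 libraries, coloured by drug, with circles for HT and triangles for WT. *Nrxn2* and *Nlgn2* climb with the measure (r within groups 0.80 and 0.78), *Nlgn3* hardly does (0.16), and *Cntnap2* and *Nrxn3* decline.

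The genes most alike to each of the 6, by r over the 59 libraries with the group means subtracted, were as follows. *Nlgn1* was closest to *Mtpn* (0.91), *Mef2c* (0.91) and *Fgf14* (0.91), whose transcripts are between 39.3% and 40.8% GC. *Nlgn2* was closest to *Rusc2* (0.86), *Sema6b* (0.84) and *Chpf* (0.83), and *Nrxn2* to *Lrrc4b* (0.88), *Map1s* (0.86) and *Adgrb1* (0.85), all between 58.0% and 63.6% GC. *Nlgn3* was closest to *Nova2* (0.77), *Pom121* (0.75) and *Dym* (0.75). *Nrxn3* was closest to *Etv1* (0.86), *Kcnd2* (0.85) and *Med13* (0.85), and *Cntnap2* to *Dhx9* (0.73), *Dip2c* (0.73) and *Aff4* (0.73). The neighbours of the 2 GC-rich and of the most AT-rich gene thus resembled them in base composition as well.

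The partners of these proteins are read against the share of all tested genes called, which was 20.3% in HT lithium, 12.8% in WT lithium and 5.66% in WT fluoxetine mice. Of 17 genes for secreted or postsynaptic ligands of neurexins, 3 rose and 2 fell in HT lithium against HT vehicle mice (10.9% and 9.43% of all genes), with a median log2 change of 0.01 against 0.00 over all genes. Those with the smallest p were *Adgrl1*, which encodes the latrophilin Adgrl1 (0.29, limma adjusted p = 0.00138), *Clstn3*, which encodes a calsyntenin (0.36, 0.00321), and *Dag1*, which encodes dystroglycan (0.12, 0.00637). In WT mice *Clstn3* alone of the 17 rose with lithium (0.28, 0.0385). Under fluoxetine in WT mice *Lrrtm4*, which encodes a leucine-rich postsynaptic ligand, fell (-0.26, 0.0121) and *Dag1* rose (0.12, 0.0234).

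Of 10 genes for partners of neuroligins, 2 rose and none fell in HT lithium mice, a share near the 20.3% of all genes. *Dlg4*, which encodes PSD-95, had a log2 change of 0.24 (limma adjusted p = 0.0179) and *Dlg3*, which encodes SAP102, one of 0.12 (0.0139). The 8 that did not pass included *Gphn*, for the scaffold of inhibitory synapses (-0.09, limma adjusted p = 0.101), *Dlg2* (0.04, 0.754) and *Magi2* (0.06, 0.647). Of 7 genes for proteins that bind the tails of neurexins, *Apba1* (0.26, 0.00159) and *Caskin1* (0.27, 0.00242) rose in HT lithium mice, and the median of the 7 was 0.11. None of the 17 genes of these 2 lists passed in the other drug comparisons of the arms.

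Around Caspr2, none of 7 genes of its axonal complex passed in HT lithium mice, where *Cntnap2* fell. In WT lithium mice *Kcna1*, the gene of the Kv1.1 channel, rose (0.44, limma adjusted p = 0.0146). Of 5 relatives of *Cntnap2*, *Cntnap1*, which encodes Caspr at the paranodes, rose in HT lithium mice (0.32, 0.0376), with a median of -0.07 over the 5. No gene of any of the 5 lists passed with fluoxetine in HT mice, between the genotypes, or in the interactions of genotype with drug. In the interaction of sex with fluoxetine in WT mice, 8.66% of all tested genes passed as measured, and 1 of 16599 with the GC trend removed. Genes of the lists that passed as measured included *Mdga2* (-0.40, limma adjusted p = 0.0362), *Lrrtm2* (-0.67, 0.0405) and *Dag1* (0.22, 0.0312).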

How the data were processed

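Per the submitters' processing notes, the authors used Salmon 0.11.2, DESeq2 1.19.11, R 3.6.0 and GRCm38. The deposited signal is the normalized count of a gene, its count divided by a size factor of the library, for 18088 genes in 59 libraries. The counting by strand is not given in the sources used here. Steps between low values gave whole reads for 100.0% of values within 0.001, and 0 columns were unused. Symbols and lengths came from GENCODE M21 (18077 IDs matched).

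The design held a test for raw counts (edgeR) and one for scaled values (limma), and the values called for limma. The filter kept genes averaging 10 or more. The model was fitted in R 4.3.3 by limma 3.58.1 on log2(normalized count + 1), empirical Bayes with trend and robust, with a mean for each of 12 groups and Benjamini-Hochberg adjustment within each of 14 comparisons, two-sided, at 0.05. The steps were tested on simulated data. Alternatives were no filter, quantile normalization, pseudocounts of 0.5 and 5, only the groups compared, a replicate block, each sex alone, GC or length trends removed (loess, span 0.5, degree 1), bulb and striatum covariates, and each library left out in turn. On the recovered reads, DESeq2 1.42.0 (Wald test) and edgeR 4.0.16 with TMM and quasi-likelihood were run. A fit without the 3 libraries that stood apart was added after seeing the data. The 6 genes, the 5 lists and the rules for naming (the 6 genes everywhere, up to 3 passing genes of a list by smallest p, the 3 most correlated genes of each) were chosen with earlier results of these data known. One result of the lists is not reported here.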

Additional observations from a re-analysis of the deposited data

Results flagged for a closer look

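The 3 interactions of sex with fluoxetine in WT mice that passed the limma test differ between females and males by that test itself, with 5 libraries in each group. The change in females minus that in males was 0.60 for *Nrxn2*, 0.44 for *Nlgn2* and -0.49 for *Nlgn1*, with adjusted p of 0.0152, 0.0238 and 0.0423. With the GC trend of each library removed they were 0.25, 0.12 and -0.22, and none passed. Over the 36 sets of 9 or 10 libraries, 6 genes in 6 arms, no highest or lowest library lay far from the rest by Dixon's 95% criterion, where chance flags about 1 in 20 groups.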

How the results depend on the processing

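The count of the 6 genes past the threshold is given here with the share of all tested genes called at the same setting. In females alone it was 1 for HT lithium (7.02%), 0 for WT lithium (3.34%), 0 for HT fluoxetine (0.0361%) and 2 for WT fluoxetine (7.76%). In males alone it was 3 for HT lithium (16.2%), 0 for WT lithium (2.97%), 0 for HT fluoxetine (0%), 0 for WT fluoxetine (2.42%) and 2 for genotype by lithium (3.79%). With the GC trend removed it was 3 for HT lithium (11.5%), 2 for WT lithium (2483 of 16599 genes), 2 for WT fluoxetine (6.95%) and 0 for sex by fluoxetine in WT (0.00602%). With bulb and striatum covariates it was 6 for HT lithium (22.4%), 2 for WT lithium (18.0%) and 2 for WT fluoxetine (19.2%). With the length trend removed it was 5 for HT lithium (19.3%), 0 for HT fluoxetine (0.00602%), 0 for WT fluoxetine (3.17%) and 2 for sex by fluoxetine in WT (8.74%). With only the groups compared it was 0 for HT fluoxetine (0%), 0 for WT fluoxetine (2.55%) and 1 for sex by fluoxetine in WT (2.62%). edgeR gave 2 for sex by fluoxetine in WT (8.70%), and for sex by lithium in HT, DESeq2 gave 1 (1.36%), as did the fit without the 3 libraries that stood apart (0.410%). Leaving out 1 library gave 0 to 2 genes for HT fluoxetine, 0 to 2 for WT fluoxetine and 1 to 3 for sex by fluoxetine in WT. The causes were not tested. The fit of only the groups compared was not run for females against males, which already held every group.

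Of the 607 values of single genes under another setting, 550 kept their direction and side of the threshold, 24 lost it, 14 gained it and 19 turned round. In females alone, *Cntnap2* turned to 0.0502 in HT fluoxetine and 0.0164 in genotype by lithium, and *Nlgn2* to 0.0297 in HT against WT vehicle mice. In males alone, *Nrxn3* turned to -0.045 in HT lithium and -0.0563 in HT fluoxetine, and *Nlgn2* and *Nrxn2* to -0.0216 and -0.0185 in WT lithium. For WT fluoxetine, males gave 0.16 for *Nlgn1*, -0.0488 for *Nlgn2*, -0.15 for *Nrxn2* and -0.0238 for *Cntnap2*, and for HT against WT fluoxetine -0.0629 for *Nlgn1* and 0.0137 for *Nrxn2*. In HT fluoxetine mice *Cntnap2* was 0.0248 and *Nlgn1* 0.0434 with the GC trend removed, and *Cntnap2* was 0.0035 with bulb and striatum covariates and 0.0077 without the 3 libraries. With the length trend removed *Nrxn2* was -0.0391 in WT lithium and *Cntnap2* -0.0546 in WT fluoxetine mice. None of these 19 values passed the test. Leaving out 1 library moved *Nlgn1* between -0.0488 and 0.0131 and *Cntnap2* between -0.0272 and 0.0077 in HT fluoxetine, and *Cntnap2* between -0.0027 and 0.0431 in WT fluoxetine mice.

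Per kilobase of the longest transcript, *Nrxn2* had 2084, *Nrxn3* 796 and *Nlgn1* 195 normalized counts. Same-numbered replicates did not pair, and with the replicate number as a block 0 of the 6 genes passed in WT fluoxetine mice (*Nlgn3* 0.18, limma adjusted p = 0.0542) and 4 in HT lithium mice, and no other count changed.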
